A study of Mus musculus with 8 samples.

Results

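The genes described here are the POU transcription factors Pou2f1 (Oct-1), Pou2f2 (Oct-2) and Pou6f1, together with Pou2af1 (OCA-B), the coactivator of the octamer factors in lymphocytes. They are 4 of the 27594 genes in the deposited count table and were taken by symbol. Pou6f1 and Pou2f2 were selected on their measured change between genotypes in rTreg cells, where both lay lower without Foxp1, so for all 4 genes that comparison is given as a description, with no test. All 4 passed the filter on low counts that left 14540 genes to test.

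RNA was sequenced from regulatory T (Treg) cells that had been sorted out of spleen and peripheral lymph nodes, taken from C57BL/6 mice aged 6 to 8 weeks. The 8 libraries form 4 groups of 2 replicates. WT rTreg and WT aTreg cells came from Foxp3-YFP-Cre mice, and Foxp1-deficient (cKO) rTreg and aTreg cells from Foxp1fl/fl Foxp3-YFP-Cre mice, in which Cre excises the floxed Foxp1 alleles in cells that express Foxp3. Resting (rTreg) cells were sorted as CD4+ YFP+ CD44low CD62Lhigh and activated (aTreg) cells as CD4+ YFP+ CD44high CD62Llow. The YFP-Cre fusion sits in the Foxp3 locus of both genotypes, so the controls carry it too. The replicates of a group came from mice of opposite sex, as their Xist and Y-linked counts show, and so not from the same animals. The labels do not say whether a library pooled several mice, and p-values measure the spread between these libraries.

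POU factors bind DNA through a bipartite POU domain, made of a POU-specific part and a homeodomain. Oct-1 is made in nearly all cells, whereas Oct-2 is enriched in lymphocytes, best known from B cells. Both recognize the octamer found in immunoglobulin promoters and enhancers. Pou6f1 is a more distant member of the family, studied mostly in the nervous system. OCA-B has no DNA binding of its own when alone. It docks on the POU domain of Oct-1 or Oct-2 at the octamer, is most abundant in B cells and is required for germinal centers. In CD4+ T cells Oct-1 and OCA-B are known for keeping cytokine genes inducible after a first stimulation.

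In the GENCODE M21 annotation of GRCm38, the build of the files (mm10), Pou2f1 (ENSMUSG00000026565) lies at chr1:165865154-166002678 on the minus strand and Pou2f2 (ENSMUSG00000008496) at chr7:25087344-25179726 on the minus strand. Pou6f1 (ENSMUSG00000009739) lies at chr15:100575318-100599984 on the minus strand and Pou2af1 (ENSMUSG00000032053) at chr9:51213708-51240080 on the plus strand. Because Oct-1, Oct-2 and OCA-B act at the octamer, the 250 bases before each RefSeq start (GRCm38.p6) were read for it on both strands. The table of starts held 6 entries for the 4 genes. None of the 6 windows held the full octamer ATGCAAAT, which is in 1.60% of the 32851 windows of the same length. The Pou6f1 window held 7 of its letters, ATGCAAA, as the reverse complement TTTGCAT, at 138 to 132 bases before the start (4.12% of all windows hold this run). The Pou2af1 window held TGCAAAT at 231 to 225 bases before the start (3.56% of all windows). These 7-letter runs overlap the octamer and each other. A forkhead run, TGTTTAC (3.17% of all windows), was in none of the 6, and its shorter core TGTTTA (12.0%) was in 1 of the 3 windows of Pou2f1. A match of letters is no evidence of binding. The Pou6f1 and Pou2af1 windows are printed for these runs and the Pou2f2 window beside them because Pou2f2, like Pou2f1, held neither, each 5′ to 3′ on the strand of its gene, without bases in annotated exons and with the matched run in capitals.
Pou6f1, chr15:100599985-100600203, minus strand: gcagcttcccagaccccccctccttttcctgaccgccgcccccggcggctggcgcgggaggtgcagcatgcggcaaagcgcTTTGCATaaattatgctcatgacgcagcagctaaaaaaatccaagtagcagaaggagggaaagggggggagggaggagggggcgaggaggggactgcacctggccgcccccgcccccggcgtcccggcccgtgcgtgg
Pou2af1, chr9:51213440-51213689, plus strand: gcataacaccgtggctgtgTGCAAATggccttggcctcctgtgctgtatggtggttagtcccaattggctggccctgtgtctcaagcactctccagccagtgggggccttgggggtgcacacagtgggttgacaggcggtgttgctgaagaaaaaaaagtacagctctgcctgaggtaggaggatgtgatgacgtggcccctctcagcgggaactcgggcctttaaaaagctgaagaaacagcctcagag
Pou2f2, chr7:25132513-25132710, minus strand: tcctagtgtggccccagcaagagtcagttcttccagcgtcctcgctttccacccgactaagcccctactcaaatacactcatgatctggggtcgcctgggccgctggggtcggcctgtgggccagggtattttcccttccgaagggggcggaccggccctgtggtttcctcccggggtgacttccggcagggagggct
The G and C share of these stretches was 67.6% for Pou6f1, 63.6% for Pou2f2 and 56.0% for Pou2af1, against a median of 52.4% over all windows of 250 bases. The RefSeq start used for Pou2f2 lies inside the span GENCODE gives the gene, so its window is within the gene.

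The libraries held between 6373170 counts (Foxp1-deficient rTreg, replicate 1) and 15268623 counts (WT aTreg, replicate 2). At these depths 3 counts, taken as the floor, equal 0.192 to 0.478 CPM (counts scaled to the size of their library with TMM factors), and such floors cover counting error only. The targeted gene, Foxp1, had 353 and 384 CPM in WT and 342 and 338 CPM in Foxp1-deficient rTreg cells, and 234 and 230 CPM in WT against 126 and 102 CPM in Foxp1-deficient aTreg cells. The log2 fold change was -1.03 in aTreg cells (edgeR adjusted p = 0.00194) and -0.12 in rTreg cells (edgeR adjusted p = 0.460). A count over the whole gene thus separates the genotype labels in aTreg cells but checks nothing in rTreg cells. Counts of the deleted exons would be needed there and were not used here. By immunoblot, mRNA and intracellular staining, the study reported complete loss of Foxp1 in Treg cells of these mice, not split by subset. The replicate number also marks sex, since Xist had at most 3 counts in each replicate 1 library and at least 15098 in each replicate 2 library, while Y-linked genes had at least 2143 counts in sum in the former and 0 in the latter.

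In the libraries without Foxp1, the 3 POU factors lay lower than in WT in both subsets and the coactivator did not. In rTreg cells this is partly fixed by the choice of Pou6f1 and Pou2f2, which were picked on that comparison. In aTreg cells only Pou6f1 was called, and Pou2f1 (1.44-fold lower) and Pou2f2 (1.49-fold lower) were not. Over all genes, 22.3% were lower without overlap in rTreg cells and 19.6% in aTreg cells. Pou6f1 was 3.03-fold lower in rTreg cells, where no test applies, and fell 1.62-fold in aTreg cells. The rule that picked it did not use the aTreg libraries, but earlier results of these data were known. Between subsets, Pou2af1 rose 5.08-fold in WT and 4.57-fold in Foxp1-deficient cells. Pou6f1 was at 80.6 CPM in WT rTreg and 80.0 CPM in WT aTreg cells on average. Calls rest on edgeR's quasi-likelihood test and required a Benjamini-Hochberg adjusted p-value under 0.05 together with a 1.5-fold difference for genotypes and a 2-fold difference for subsets.

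**Figure D1:**
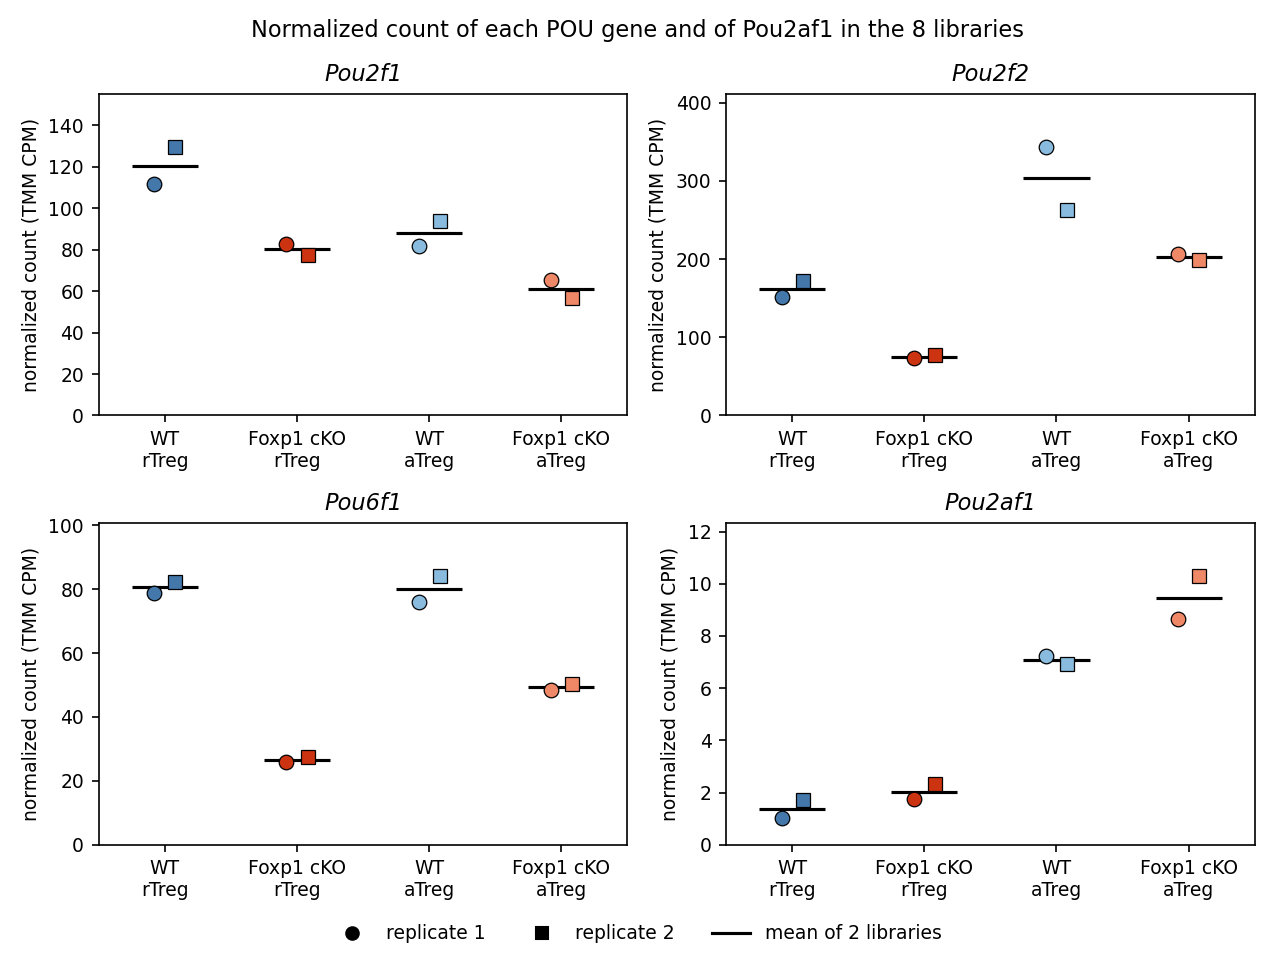
Normalized count (TMM CPM, axes from 0) of Pou2f1, Pou2f2, Pou6f1 and Pou2af1 in each library, by group; circles are replicate 1, squares replicate 2 and bars the mean of the 2 libraries. The WT and Foxp1-deficient libraries of a subset do not overlap for any of the 4 genes. Over all genes, 22.3% were lower and 22.9% higher without overlap in rTreg cells, and 19.6% lower and 22.2% higher in aTreg cells. Pou6f1, picked with Pou2f2 on the rTreg contrast, is near 80 CPM in both WT groups against 25.8 to 27.4 CPM in Foxp1-deficient rTreg cells.

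Between genotypes in aTreg cells, 1 of the 4 genes was called, Pou6f1, lower. Over all genes tested in this comparison, 1.66% were called lower and 2.37% higher, 4.03% in all. The WT and Foxp1-deficient aTreg libraries did not overlap for any of the 4, with the 3 POU factors lower and Pou2af1 higher, where 19.6% of all genes were lower and 22.2% higher without overlap. The median log2 fold change was -0.55 over the 4 genes and 0.0018 over all genes. In rTreg cells, the comparison that served to pick Pou6f1 and Pou2f2, the 2 groups did not overlap for any of the 4 either, against 22.3% of all genes lower and 22.9% higher without overlap, and 5.60% of all genes were called, 2.90% higher and 2.70% lower.

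Between subsets, tests are given for Pou2f1 and Pou2af1 only, since each subset comparison uses rTreg libraries on which Pou2f2 and Pou6f1 were picked, and their subset differences are descriptions partly fixed by that choice. Pou2af1 was called higher in aTreg cells in both genotypes, where edgeR called 9.50% of all genes higher and 2.83% lower in WT (12.3% in all), and 11.3% higher and 4.39% lower in Foxp1-deficient cells (15.7% in all). Pou2f1 was called in neither. The aTreg and rTreg libraries did not overlap for either of these 2 genes in either genotype, with Pou2af1 higher and Pou2f1 lower in aTreg cells. Over all genes, libraries without overlap made up 30.1% higher and 26.8% lower in WT, and 31.4% higher and 30.3% lower in Foxp1-deficient cells.

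**Figure D2:**
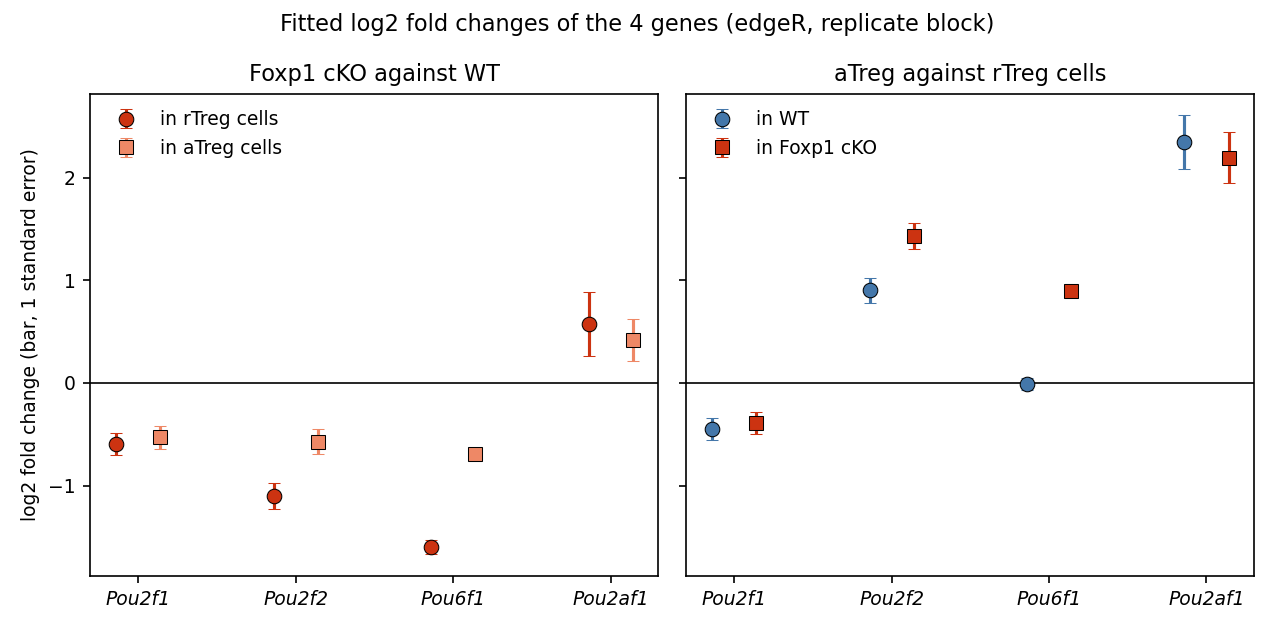
Fitted log2 fold changes of the 4 genes, with bars of 1 standard error, for Foxp1 cKO against WT (left) and aTreg against rTreg cells (right). Pou6f1 and Pou2f2 lie lower in rTreg than in aTreg cells on the left, and on the right Pou6f1 is at -0.011 in WT and at 0.89 in Foxp1-deficient cells.

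Pou2f1, the ubiquitous octamer factor, had 112 and 129 CPM in the WT rTreg libraries and 82.7 and 77.6 CPM in the Foxp1-deficient rTreg libraries. In aTreg cells it had 81.7 and 94.0 CPM in WT against 65.1 and 56.8 CPM without Foxp1. The order was WT rTreg, WT aTreg, Foxp1-deficient rTreg and Foxp1-deficient aTreg cells, and the ranges of the middle 2 groups overlapped. In rTreg cells the log2 fold change with Foxp1 loss was -0.59 (standard error 0.11), given without a test. In aTreg cells it was -0.53 (standard error 0.11, edgeR adjusted p = 0.0308), a 1.44-fold lower level that stayed short of the 1.5-fold threshold. This gene passed both thresholds when WT aTreg replicate 1 was left out (-0.63, edgeR adjusted p = 0.0381) or Foxp1-deficient aTreg replicate 1 (-0.68, edgeR adjusted p = 0.0356), and its adjusted p was 0.133 in edgeR without the replicate block. The difference between the 2 genotype effects was 0.062 on the log2 scale (standard error 0.15), with no test.

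Between subsets, Pou2f1 was 1.37-fold lower in WT aTreg than in WT rTreg cells (log2 fold change -0.45, standard error 0.11, edgeR adjusted p = 0.0149) and 1.31-fold lower in Foxp1-deficient aTreg than rTreg cells (-0.39, standard error 0.11, edgeR adjusted p = 0.0246). Both changes stayed under the 2-fold threshold. On the opposite strand, 3007 of the 16597 exon bases of Pou2f1 are also exons of Cd247, which encodes the CD3 zeta chain. Whether the counting used strand is not given in the sources used here, so reads from the shared bases cannot be told apart. The Cd247 count was 209 and 245 CPM in WT against 222 and 251 CPM in Foxp1-deficient rTreg cells, and the groups overlapped (log2 fold change 0.063, edgeR adjusted p = 0.672). In aTreg cells Cd247 had 150 and 210 CPM in WT against 139 and 159 CPM in Foxp1-deficient cells, and the groups overlapped (log2 fold change -0.26, edgeR adjusted p = 0.109). Cd247 was lower in aTreg than in rTreg cells by 0.34 on the log2 scale in WT (edgeR adjusted p = 0.0176) and by 0.67 in Foxp1-deficient cells (edgeR adjusted p = 5.96e-04), which is the direction of Pou2f1, and the part of the shared bases in that result was not tested.

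Pou2f2, the octamer factor enriched in lymphocytes, had 151 and 172 CPM in WT rTreg cells and 73.2 and 76.8 CPM in Foxp1-deficient rTreg cells. Its aTreg levels were higher, with 343 and 263 CPM in WT against 207 and 199 CPM without Foxp1. No neighbouring groups overlapped in the order WT aTreg, Foxp1-deficient aTreg, WT rTreg and Foxp1-deficient rTreg cells, and the widest spread was that between the WT aTreg libraries. The log2 fold change with Foxp1 loss was -1.10 in rTreg cells (standard error 0.13), a 2.15-fold lower level on the contrast that picked the gene. In aTreg cells the log2 fold change was -0.57 (standard error 0.12, edgeR adjusted p = 0.0335), a 1.49-fold lower level that just missed the 1.5-fold threshold. Without WT aTreg replicate 2 it passed (-0.79, edgeR adjusted p = 0.0113), and without WT aTreg replicate 1 it was -0.33. Without the replicate block the edgeR adjusted p was 0.140.

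In WT cells Pou2f2 was 1.87-fold higher in aTreg than in rTreg cells (log2 fold change 0.90, standard error 0.12), and in Foxp1-deficient cells it was 2.70-fold higher (log2 fold change 1.43, standard error 0.13). Neither is given a test, because the gene was picked on the rTreg libraries that serve as the reference. The aTreg libraries lay above the rTreg libraries in both genotypes. The genotype effect was smaller in aTreg than in rTreg cells by 0.53 on the log2 scale (standard error 0.17), given without a test because it contains the contrast that picked the gene. The pairs gave a difference of 0.32 for replicate 1 and 0.76 for replicate 2.

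Pou6f1, the POU factor known from neurons, had the lowest ratio of Foxp1-deficient to WT level among the 4 genes in rTreg cells. It had 78.8 and 82.3 CPM in WT rTreg cells and 25.8 and 27.4 CPM in Foxp1-deficient rTreg cells, on 162 and 380 counts in the latter. The replicates of each group lay within a few CPM of each other. The gap between the groups lies on the contrast that picked the gene, so it is a description only. The log2 fold change was -1.60 (standard error 0.068), a 3.03-fold lower level, and the 2 pairs of libraries gave -1.61 and -1.59. In aTreg cells, in libraries that the selection rule did not use, Pou6f1 had 75.9 and 84.0 CPM in WT against 48.5 and 50.3 CPM without Foxp1. It fell there by 0.69 on the log2 scale (standard error 0.062, 95% interval -0.84 to -0.55, edgeR adjusted p = 0.00180), which is a 1.62-fold lower level. Each of the 18 alternative fits called it lower, at log2 fold changes from -0.73 to -0.65 and adjusted p-values of at most 0.0379. In the same libraries, 1 of 3 markers of resting T cells was called lower and 1 of 4 markers of activated Treg cells higher. Over all genes, 1.66% were called lower and 2.37% higher. Ccr7, a homing receptor of resting T cells, was at 205 and 196 CPM in WT and 79.6 and 59.1 CPM in Foxp1-deficient aTreg cells (edgeR adjusted p = 5.98e-04), and Klrg1, a receptor of effector cells, at 38.2 and 33.6 CPM against 92.7 and 68.2 CPM (edgeR adjusted p = 0.00282). Cd44, on the activated list, went the other way without being called, at 213 and 214 CPM in WT against 174 and 197 CPM without Foxp1. Tcf7, on the resting list, was at 694 and 841 CPM against 718 and 757 CPM, and its groups overlapped. Icos and Itgae were higher and Lef1 lower, and none of them was called. The part of these markers in the Pou6f1 difference was not tested.

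The level of Pou6f1 in WT cells did not separate the subsets, since the 2 WT aTreg libraries lay on either side of the WT rTreg libraries. The log2 fold change was -0.011 (standard error 0.061). In Foxp1-deficient cells it was 1.86-fold higher in aTreg than in rTreg cells (log2 fold change 0.89, standard error 0.069), with the 2 rTreg libraries that picked it as the reference, and no test is given for either. The genotype effect was smaller in aTreg cells by 0.90 on the log2 scale (standard error 0.092), with 0.96 for the replicate 1 pair and 0.85 for the replicate 2 pair, and was not tested. The order of its levels was thus both WT groups together, then Foxp1-deficient aTreg and, lowest, Foxp1-deficient rTreg cells. In bulk libraries, fewer cells that express a gene and less of its RNA per cell cannot be told apart.

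Pou2af1, the coactivator, rested on the fewest counts of the 4 genes. It had 11 and 22 counts in WT rTreg cells (1.01 and 1.73 CPM) and 11 and 32 counts in Foxp1-deficient rTreg cells (1.75 and 2.31 CPM). These levels were above the floor of 3 counts but low, and those of WT replicate 2 and Foxp1-deficient replicate 1 nearly met. The log2 fold change was 0.57 (standard error 0.31), with no test. In aTreg cells it had 66 and 108 counts in WT (7.24 and 6.92 CPM) and 103 and 143 counts in Foxp1-deficient cells (8.63 and 10.3 CPM). The Foxp1-deficient libraries were the higher ones, but the log2 fold change of 0.42 was not called (standard error 0.21, 95% interval -0.056 to 0.90, edgeR adjusted p = 0.267).

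The difference between subsets was larger than the spread of replicates for this gene. Pou2af1 rose 5.08-fold from WT rTreg to WT aTreg cells (log2 fold change 2.35, standard error 0.26, edgeR adjusted p = 4.46e-04) and 4.57-fold in Foxp1-deficient cells (log2 fold change 2.19, standard error 0.25, edgeR adjusted p = 3.42e-04). Both calls held in each of the 18 alternative fits. The pairs gave 2.84 and 2.00 in WT and 2.30 and 2.15 in Foxp1-deficient cells. The genotype effect differed between subsets by -0.15 on the log2 scale (standard error 0.37), with no test, and the 2 pairs pointed in opposite directions.

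By deposited FPKM, Pou2f2 had the highest level of the 4 genes in every library. The length behind these values was 16597 bases for Pou2f1, 8243 for Pou2f2 and 6896 for Pou6f1. That of Pou2f1 equals the merged exons of its 18 annotated transcripts, so the order of the genes depends on the length used. By CPM, not divided by length, Pou2f1 was above Pou6f1 in every library and above Pou2f2 in the Foxp1-deficient rTreg libraries. The deposited FPKM of Pou2f2 was 18.4 and 20.3 in WT rTreg, 8.74 and 8.96 in Foxp1-deficient rTreg, 42.8 and 32.6 in WT aTreg and 25.8 and 23.8 in Foxp1-deficient aTreg cells. Pou6f1 had 11.5 and 11.6 FPKM in WT rTreg and 3.69 and 3.83 FPKM in Foxp1-deficient rTreg cells. This placed Pou6f1 above Pou2f1 in WT rTreg cells (6.77 and 7.60 FPKM) and below it in Foxp1-deficient rTreg cells (4.91 and 4.50 FPKM). In aTreg cells Pou6f1 lay above Pou2f1 in both genotypes, at 11.3 and 12.4 FPKM in WT and 7.25 and 7.18 FPKM in Foxp1-deficient cells against 5.06 and 5.79 FPKM and 4.04 and 3.36 FPKM. Pou2af1 had 0.400 and 0.661 FPKM in WT rTreg cells and reached 3.49 and 3.97 FPKM in Foxp1-deficient aTreg cells, where its range overlapped that of Pou2f1. Over the 8 libraries the mean FPKM was 22.7 for Pou2f2, 8.61 for Pou6f1, 5.25 for Pou2f1 and 1.97 for Pou2af1.

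**Figure D3:**
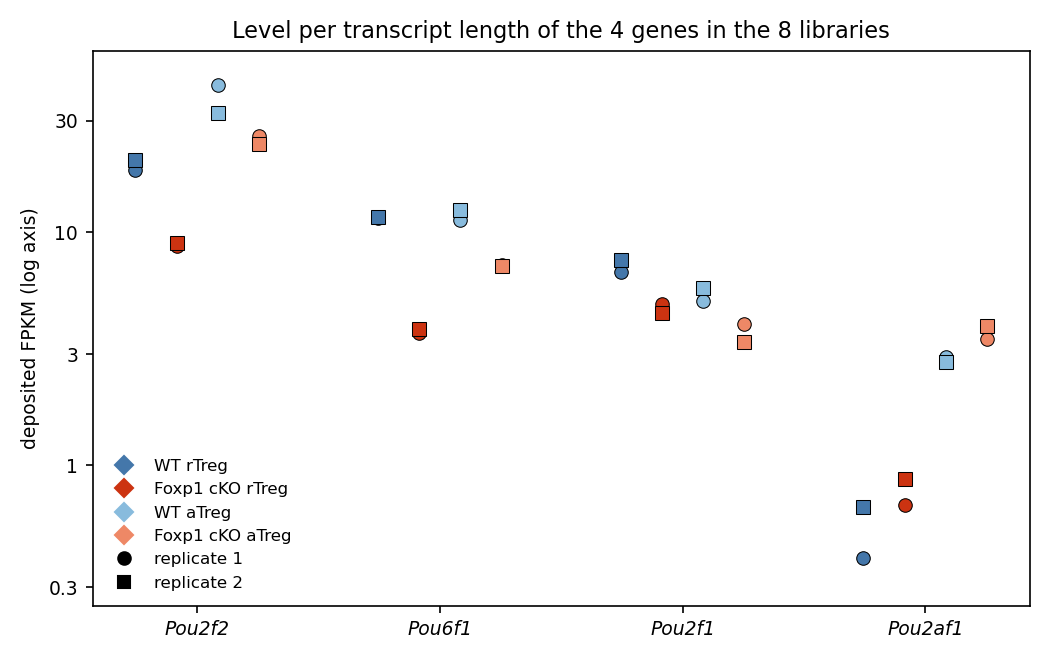
Deposited FPKM (log axis) of Pou2f2, Pou6f1, Pou2f1 and Pou2af1 in each library; colors are the 4 groups, circles replicate 1 and squares replicate 2. Pou6f1 lies above Pou2f1 in every group except Foxp1-deficient rTreg cells, and Pou2af1 is under 1 FPKM in all rTreg libraries.

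Because Oct-2 and OCA-B are abundant in B cells, B cell markers were read beside them. Of the 10 markers, 7 passed the filter on low counts, and Ms4a1, Ebf1 and Fcrla did not, with 0 to 5 counts in sum per library. The summed level of the 10 was 178 to 228 CPM in WT rTreg, 258 to 265 CPM in Foxp1-deficient rTreg, 649 to 665 CPM in WT aTreg and 748 to 832 CPM in Foxp1-deficient aTreg cells. Most of it was Ighm, the immunoglobulin mu heavy chain gene, with 164 to 240 CPM in rTreg and 604 to 772 CPM in aTreg libraries. Without Ighm and Igkc the sum was 8.47 to 10.8 CPM in rTreg and 33.7 to 39.3 CPM in aTreg cells. Of the 7 tested, 4 were called higher in aTreg cells in WT, against 9.50% of all genes, and 5 in Foxp1-deficient cells, against 11.3%. Pax5, Cd22 and Blk had 0 to 9 counts in each rTreg library and passed the filter through aTreg libraries only. The counts of calls are therefore not read against these shares. Cd79a, a defining chain of the B cell receptor, went the other way without being called, from 3.50 and 3.46 CPM in WT rTreg to 2.19 and 3.14 CPM in WT aTreg cells and from 4.14 and 4.33 CPM to 2.60 and 2.73 CPM in Foxp1-deficient cells. Between genotypes Igkc was called higher without Foxp1 in both subsets, with 65 and 2 counts in WT against 143 and 216 in Foxp1-deficient rTreg cells. Cd22 was called higher in rTreg cells, on 4 and 3 counts in WT against 9 and 9. Over all genes, 2.90% were called higher in rTreg and 2.37% in aTreg cells. The part of B cells in the subset and genotype differences of Pou2f2 and Pou2af1 was not tested.

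Follicular regulatory T cells, which share Bcl6 and Cxcr5 with follicular helper cells, were read beside Pou2af1 as well. Cxcr5, Bcl6 and Pdcd1 were all called higher in aTreg cells in both genotypes, where 9.50% of all genes were in WT and 11.3% in Foxp1-deficient cells. Their summed level went from 45.3 to 47.4 CPM in WT rTreg to 221 to 319 CPM in WT aTreg cells. In Foxp1-deficient cells it went from 37.6 to 43.0 CPM to 282 to 293 CPM. Their part in the level of Pou2af1 was not tested either. The sorted identity of the cells was readable in their markers. Foxp3, Il2ra, Ctla4, Ikzf2, Cd4 and Cd3e together had 2788 to 4317 CPM in the 8 libraries. This sum covers opposite shifts with genotype in rTreg cells. There 1 of the 6 was called lower, against 2.70% of all genes, and 2 of the 6 were higher without being called. Ctla4 had 353 and 197 CPM in WT against 211 and 96.6 CPM without Foxp1. Cd4 had 592 and 628 CPM against 837 and 936 CPM. Ccr7, Lef1 and Tcf7, which mark resting T cells, summed to 1497 to 1860 CPM in rTreg libraries. In aTreg libraries this sum was 1019 and 1211 CPM in WT and 912 and 927 CPM in Foxp1-deficient cells. Cd44, Icos, Klrg1 and Itgae, which mark activated Treg cells, summed to 69.5 to 104 CPM in rTreg libraries. In aTreg libraries their sum was 867 and 935 CPM in WT and 1049 and 1346 CPM in Foxp1-deficient cells. Some markers moved with genotype. Cxcr5 was called lower without Foxp1 in rTreg cells, at 9.49 and 8.80 CPM in WT against 4.14 and 3.25 CPM. It was 1 of 3 follicular markers, and 2.70% of all genes were called lower there. In aTreg cells Cxcr5 was lower but not called, at 83.8 and 69.5 CPM in WT against 57.7 and 45.1 CPM. Plasma cell markers summed to 2.03 and 0.393 CPM in WT and 7.49 and 4.77 CPM in Foxp1-deficient rTreg cells. There 1 of 2 was called higher, against 2.90% of all genes. In aTreg cells they summed to 3.07 and 2.56 CPM against 11.6 and 3.23 CPM, and none was called. Myeloid markers summed to 8.20 and 8.17 CPM in WT and 19.6 and 12.6 CPM in Foxp1-deficient rTreg cells. Of the 6 tested, 3 were called higher there, against 2.90% of all genes, Mpo among them with 0 and 0 against 25 and 36 counts. Mpo, S100a8 and S100a9 had 0 to 2 counts in each WT rTreg library and passed the filter through other groups. This count is therefore not read against that share. In aTreg cells the myeloid sum was 9.55 and 8.33 CPM in WT and 31.7 and 7.26 CPM in Foxp1-deficient cells. There 1 of 6 was called higher, against 2.37% of all genes. Their part in the genotype differences of the 4 genes was not tested. CD8 T cell markers summed to 6.11 to 16.7 CPM and NK cell markers to at most 3.59 CPM over the 8 libraries.

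Of the other 12 POU genes listed, 8 were in the table and 2 passed the filter on low counts, Pou4f1 and Pou5f2. Neither was called between genotypes, nor had an unadjusted p under 0.05 there in edgeR. Pou4f1 (Brn3a), a factor of sensory neurons, had 3 and 2 counts in WT rTreg and 2 and 4 counts in Foxp1-deficient rTreg cells against 20 and 17 in WT aTreg and 19 and 17 in Foxp1-deficient aTreg cells. It was called higher in aTreg cells in WT (edgeR adjusted p = 0.00400) and in Foxp1-deficient cells (edgeR adjusted p = 0.0113), and its rTreg counts near the floor give no reliable fold. The call in Foxp1-deficient cells was lost without Foxp1-deficient rTreg replicate 1 (edgeR adjusted p = 0.0804), rTreg replicate 2 (0.0661) or aTreg replicate 2 (0.0847), and with DESeq2 (0.0816).

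The partners of the octamer factors were listed as 15 genes, all of which passed the filter: the herpes host cell factor Hcfc1, the 5 subunits of the SNAPc complex, which Oct-1 recruits to small nuclear RNA genes, the histone demethylase Kdm3a, which Oct-1 recruits with OCA-B, the ubiquitin ligases Siah1a, Siah1b and Siah2, of which Siah1 marks OCA-B for degradation, the kinase Prkdc, and Brca1, Nr3c1, Mnat1 and Cdk7. Only 1 of the 15 was called in any comparison, in rTreg cells between genotypes, where 5.60% of all genes were, so the count is near the background. It was Brca1. This gene, which acts in DNA repair and is made in dividing cells, had 3.04 and 4.56 CPM in WT and 7.65 and 9.24 CPM in Foxp1-deficient rTreg cells, a 2.22-fold rise (log2 fold change 1.15, standard error 0.27, edgeR adjusted p = 0.0334). Leaving out any of the 4 rTreg libraries ended this call, with edgeR adjusted p-values of 0.161 and 0.140 without WT replicate 1 or 2 and 0.130 and 0.200 without Foxp1-deficient replicate 1 or 2. It was also not called without the replicate block (0.139) or by limma-voom (0.0515). In the other comparisons edgeR called none of the 15, and DESeq2 called none. Between genotypes in aTreg cells limma-voom called 1, as did edgeR there without the filter. The median log2 fold change of the list lay between -0.0084 and 0.028 in the 4 comparisons, and that of all genes between -0.018 and 0.0029.

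A list of genes tied to the octamer factors in lymphocytes held 11, of which 7 passed the filter. Cd79b stands on the list of B cell markers too, and Bcl6 on that of follicular regulatory T cells. None was called between genotypes by edgeR, DESeq2 or limma-voom. Without the filter on low counts edgeR called 1 lower in aTreg cells. Between subsets, 5 of the 7 were called higher in aTreg cells in WT, against 9.50% of all genes, and 5 in Foxp1-deficient cells, against 11.3%. Il4, Il21 and Ifng among them passed the filter through aTreg libraries only, so the count is not read against these shares. The called genes that were counted well in both subsets were Cd79b and Bcl6. Cd79b, the B cell receptor beta chain and a classical octamer gene, rose from 4.33 and 5.34 CPM in WT rTreg to 15.8 and 15.8 CPM in WT aTreg cells, 3.26-fold. Bcl6, the repressor of follicular T cells and germinal center B cells, rose 2.22-fold in WT, from 23.4 and 23.7 CPM to 61.9 and 44.2 CPM, and was under 2-fold without WT aTreg replicate 1 (log2 fold change 0.90). The cytokine genes Il4, Il21 and Ifng had 0 to 5 counts in each rTreg library and 12 to 202 counts in each aTreg library, so they were called without a measured fold. The call of Il4 in WT was lost without WT rTreg replicate 1 (edgeR adjusted p = 0.0735). That of Il21 in WT was lost without either WT rTreg replicate (0.101 and 0.193), either Foxp1-deficient rTreg replicate (0.0624 and 0.0631) or WT aTreg replicate 1 (0.0755), and without the replicate block (0.0545), all from edgeR. In Foxp1-deficient cells the call of Il21 was lost without either rTreg replicate (edgeR adjusted p = 0.0552 and 0.312) or aTreg replicate 2 (0.169). Kcnn4 and Btla were the 2 tested genes of the list that were not called.

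**Figure D4:**
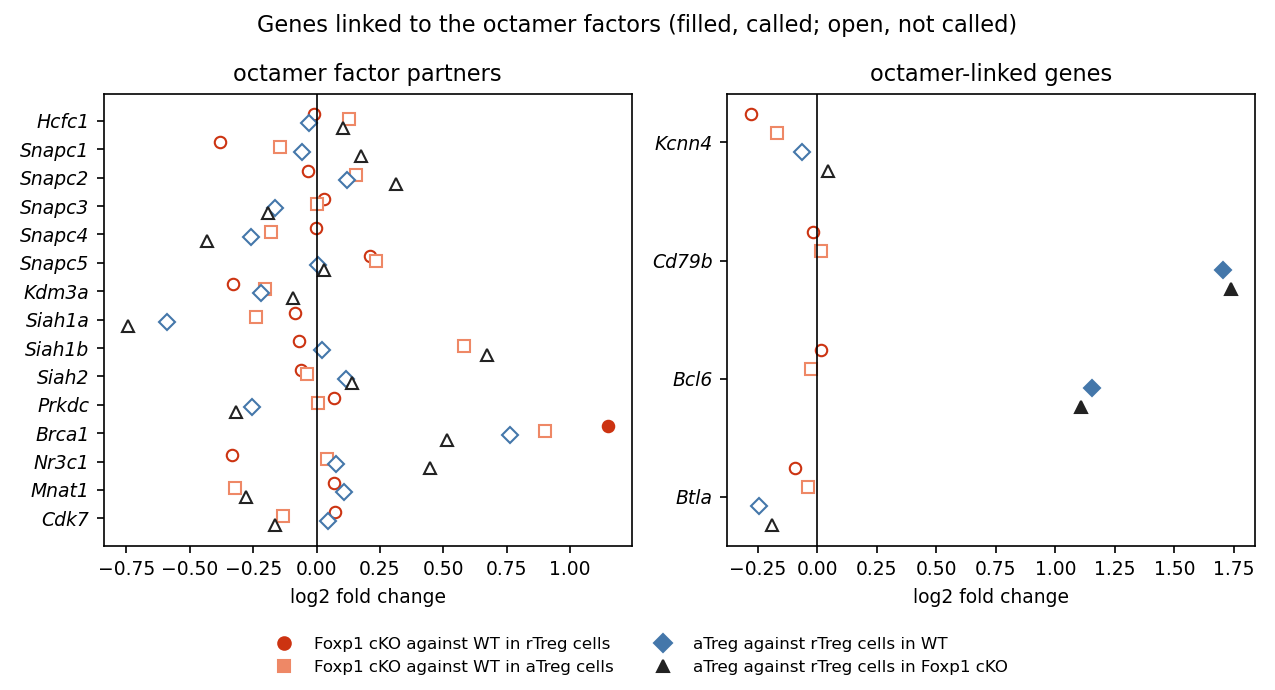
Fitted log2 fold changes of the octamer factor partners (left) and of the octamer-linked genes (right) in the 4 comparisons; filled marks are called and open marks are not, and genes with a group whose libraries all hold at most 3 counts are left out. On the left only Brca1 in rTreg cells is filled, and on the right the filled marks are Cd79b and Bcl6 between subsets.

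Genes with the most similar course were sought for each member among 10106 other genes by Pearson's r over the 8 libraries, on log2 CPM with the mean of each replicate number subtracted. They share libraries and scaling with the member, and the highest of so many values is high by selection. For Pou2f1 they were Ccdc166 (r = 0.997), Rbm25 (r = 0.995) and Ikzf3 (r = 0.992), the gene of Aiolos, whose group means were 453 CPM for WT rTreg, 282 CPM for Foxp1-deficient rTreg, 313 CPM for WT aTreg and 217 CPM for Foxp1-deficient aTreg cells. For Pou2f2 they were Prrc1 (r = 0.995), Parp4 (r = 0.991) and Brd8 (r = 0.990). For Pou6f1 they were the splicing factor gene Rbm39 (r = 0.995), Pofut1 (r = 0.989), which fucosylates Notch receptors, and Iqcb1 (r = 0.988). The range of Rbm39 was narrow, from 592 to 626 CPM over the group means, whereas that of Pou6f1 ran from 26.6 to 80.6 CPM. For Pou2af1 they were Rab8b, Mettl7a1 and Gm6637 (r = 0.997 each), of which Rab8b went from 160 CPM in WT rTreg to 331 CPM in Foxp1-deficient aTreg cells. Among the members, r was 0.82 between Pou2f2 and Pou6f1, which were picked for a shared direction, 0.66 between Pou2f2 and Pou2af1, 0.49 between Pou2f1 and Pou6f1, 0.13 between Pou6f1 and Pou2af1, -0.031 between Pou2f1 and Pou2f2 and -0.73 between Pou2f1 and Pou2af1.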

How the data were processed

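The deposited table gave, for each of 27594 genes in 8 libraries, the raw read count and the FPKM. Per the submitters' processing notes and the study's methods, the authors trimmed the reads, aligned them with HISAT2 2.0.5 to mm10, removed duplicates with Picard and made the counts per gene with HTSeq. The strand setting is not given in the sources used here. The deposited FPKM values equalled the count divided by library total and gene length, with a relative spread of at most 7.06092e-06. Removal of duplicates lowers the counts of abundant genes most.

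Counts were fitted with edgeR 4.0.16 (R 4.3.3): TMM factors, filterByExpr with a minimum count of 10 (14540 genes kept, 13054 left out), quasi-likelihood fits of 4 group means with the replicate number as a block, and Benjamini-Hochberg adjustment over all genes tested. The study's own methods pair the samples. Libraries with the same replicate number deviated together from their group means (r = 0.462, 0.380, 0.597 and 0.548 across genes in the 4 comparisons). With 2 pairs only, the pairing rests on the study's methods and the shared numbers. The study describes 2 rounds of sequencing, which the labels do not tie to replicate numbers. Standard errors and 95% intervals came from the same fit. Levels between genes were compared by FPKM, and the order of Pou2f1 against Pou6f1 and Pou2f2 is also given by CPM.

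No test is given for Pou2f2 and Pou6f1 in comparisons that use rTreg libraries. The members and lists were chosen with earlier results of these data known. Genes were named if they were members, the targeted gene, called genes of the listed groups, or the 3 genes whose pattern was closest to a member's (log2 CPM with a prior count of 2, mean CPM of at least 5). Cd247, the marker genes named as measured context, Kcnn4, Btla and Pou5f2 fall outside this rule and were named after their values were seen. Some genes of the lists are not reported here and were left out of their counts and sums. Promoter windows came from RefSeq (GRCm38.p6) and gene positions from GENCODE M21. The fits were tested on simulated data. Alternatives were DESeq2 1.42.0, its size factors, limma 3.58.1 (voom with and without quality weights, and log2 of FPKM plus 1 or 0.1 for genes with a mean FPKM of at least 1), no filter, no block, a length trend removed, the 4 libraries of a comparison alone, and each library left out.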

Additional observations from a re-analysis of the deposited data

Results flagged for a closer look

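The effect of the genotype on the Foxp1 count itself differed between subsets. The log2 fold change was -1.03 in aTreg and -0.12 in rTreg cells, a difference of -0.92 (standard error 0.13, edgeR adjusted p = 0.0477 for the difference itself). Both pairs of libraries gave the same direction, with -0.848 and -0.997. The whole-gene count includes exons outside the deleted stretch, and its part in this difference was not tested.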

How the results depend on the processing

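With 2 libraries a group, counts of calls moved more than the members did. The 814 genes called between genotypes in rTreg cells became 266 without the replicate block, 366 and 446 with limma on log2 of FPKM plus 1 and plus 0.1, and 214 to 861 with a library left out. The 586 called in aTreg cells became 77 without the replicate block, 1035 without a filter, 349 from the 4 libraries alone, 129 and 107 on FPKM plus 1 and plus 0.1, and 117 to 537 with a library left out. The 1793 called between subsets in WT became 787 and 1027 on FPKM, and the 2282 in Foxp1-deficient cells 1087 and 1393. The share of calls that were higher without Foxp1 moved from 51.7% to 68.7% in rTreg cells without Foxp1-deficient rTreg replicate 2, and from 58.7% to 48.6% in aTreg cells on FPKM plus 0.1. The cause of these shifts was not tested.

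In rTreg cells the log2 fold change of Pou6f1 was -1.62 without a filter, -1.40 on FPKM plus 1 and -1.56 with the length trend removed, and -1.63 to -1.59 with a library left out. Leaving out a library gave -1.27 to -0.94 for Pou2f2 and 0.33 to 0.94 for Pou2af1, which was 0.22 on FPKM plus 1. In aTreg cells leaving out a library gave -0.68 to -0.37 for Pou2f1 and -0.79 to -0.33 for Pou2f2, and between subsets in WT 0.67 to 1.12 for Pou2f2. The difference of genotype effects was 0.75 for Pou6f1 on FPKM plus 1 and -0.091 to 0.22 for Pou2f1 with a library left out. Leaving out the replicate block changed no call given for the 4 genes, and the fold changes it gave in aTreg cells were -0.53, -0.58, -0.69 and 0.42 for Pou2f1, Pou2f2, Pou6f1 and Pou2af1. The adjusted p-values in aTreg cells ran over all alternatives from 2.65e-04 to 0.247 for Pou2f1 (edgeR, DESeq2 or limma), from 3.48e-05 to 0.224 for Pou2f2 and from 0.195 to 0.828 for Pou2af1. Depth limits Pou2af1 most, with 11 to 32 counts in each rTreg library.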
